A study of Mus musculus with 9 samples.

Results

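The chromatin around Tbx3 was described across 9 ATAC-seq libraries of mouse embryonic stem cells. The locus was taken as every counted region that lay in Tbx3 (mm10 chr5:119670534-119684724) or within 150 kb of either end of that span, which gave 66 of the 157497 regions counted over the genome. ATAC-seq measures accessibility by letting a transposase place sequencing adapters in open DNA, so that a higher read count at a region stands for more open chromatin there. The locus was chosen by the log2 difference of 1 of its regions between NanogKO:Esrrb and NanogKO cells, so values of that comparison are given as a description, with no p-value.

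Each of the 3 groups had 3 libraries. NanogKO:Esrrb:Nanog cells (titles with the code 44JN) lacked the native Nanog by their label and carried added Esrrb and Nanog, NanogKO:Esrrb cells (44J) carried added Esrrb, and NanogKO cells (44C6) carried neither. The sources used here do not give how Esrrb and Nanog were added. The cell line field has 1 name for NanogKO and another, N{delta}:cE:iN, for both other groups, so each comparison with NanogKO also set differently named lines against each other. Each group's titles share 1 code, and the labels do not say whether a group is 1 clone. All cells grew in 10% serum with 1000 U/ml of LIF, the cytokine that sustains self-renewal, had no treatment, and were sorted as PECAM positive and PDGFRA negative. Nothing in the labels marks the replicates as separate cultures, and a p-value here reflects only how far these libraries spread, in part perhaps for technical reasons. Cells are bulk samples, so a larger share of cells with an open region and a more open region in each cell cannot be told apart.

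Tbx3 encodes a T-box transcription factor that binds DNA and mostly represses, though it can also activate, its targets. In mouse embryonic stem cells it acts below LIF and supports self-renewal together with NANOG, ESRRB, KLF4 and other factors of the naive network, and it also takes part in the formation of extraembryonic endoderm. In the embryo it patterns limb, mammary gland and the conduction system of the heart. Its neighbour Tbx5, a T-box factor of heart and forelimb, lies on the side of higher coordinates. The lower side, upstream of the Tbx3 start, holds no protein-coding gene within the window.

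The RefSeq annotation of GRCm38.p6 places 10 genes in the window, and all but Tbx3 (gene 21386) and Tbx5 are long noncoding RNA genes. Tbx3os1 (chr5:119611253-119671508) overlaps the start of Tbx3 and runs over most of the nearer lower side, and Gm16063 and Gm16064 lie within it. AW549542 (chr5:119570129-119580358) lies farther out. Tbx3os2 (chr5:119685088-119691218) lies just beyond the other end of Tbx3. No function is assigned here to these RNAs.

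RefSeq promoter sequences, from 250 bases before to 50 after a gene's start, were held for 6 of the 10 genes. AW549542, Gm16063, Tbx3 and Tbx5 had none. The promoters of both antisense genes of Tbx3 are shown, and counted chromatin met only that of Tbx3os2. The Tbx3os1 promoter lies within Tbx3 near its start, and the Tbx3os2 promoter lies beyond the other end of Tbx3. Both read 5′ to 3′ on the minus strand of GRCm38.p6, and capitals mark bases that lie in a counted region.
Tbx3os2, chr5:119691169-119691468: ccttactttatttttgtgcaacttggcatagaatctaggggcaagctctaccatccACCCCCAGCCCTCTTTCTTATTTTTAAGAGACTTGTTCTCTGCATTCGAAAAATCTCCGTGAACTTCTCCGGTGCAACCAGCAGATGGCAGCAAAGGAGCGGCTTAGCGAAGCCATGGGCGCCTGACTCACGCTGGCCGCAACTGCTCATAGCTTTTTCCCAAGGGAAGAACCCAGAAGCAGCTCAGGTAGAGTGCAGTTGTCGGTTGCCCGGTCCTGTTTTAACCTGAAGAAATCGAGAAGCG
Tbx3os1, chr5:119671459-119671758: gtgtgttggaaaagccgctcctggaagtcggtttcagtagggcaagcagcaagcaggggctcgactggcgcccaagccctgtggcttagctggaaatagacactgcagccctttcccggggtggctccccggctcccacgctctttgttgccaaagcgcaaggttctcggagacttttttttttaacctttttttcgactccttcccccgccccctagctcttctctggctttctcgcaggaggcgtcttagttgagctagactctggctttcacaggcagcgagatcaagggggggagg
In the Tbx3os2 promoter 244 of 300 bases lay in the region chr5:119691007-119691412, whose values are given with the higher side. The Tbx3os1 promoter lay 354 bp from the nearest counted region and its own accessibility was therefore not measured. GC content was 50.7% for Tbx3os2 and 57.3% for Tbx3os1. Both strands were searched for TCAAGGTCA and for the shorter AAGGTCA within it, the element that ESRRB is known to bind, and for the T-box element AGGTGTGA. Neither promoter held any of these letters. Of the other promoters searched, that of Gm42017 held TCAAGGTCA once, and it lay 649 bp from the nearest counted region. Among 32544 promoter windows of the same length, 0.412% held TCAAGGTCA, 4.71% held AAGGTCA and 1.28% held AGGTGTGA.

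Library totals over all regions ran from 35545030 to 58520948 counts, with 9981 to 24862 of them in the 66 regions of the locus. A single region of the locus held 8 to 3512 counts in a library, and all 66 passed the filter on low counts. Values are CPM, the read count scaled to the library total, which was adjusted by a TMM factor so that a few very high regions do not set it. NanogKO:Esrrb:Nanog replicate 3 differed most from the libraries of its own group over the genome, with a chi-square per region of 9.49 and 7.15 against 3.55 to 6.38 for every other pair within a group. Marker genes of embryonic stem cells had 623 to 691 CPM in NanogKO:Esrrb:Nanog, 545 to 593 CPM in NanogKO:Esrrb and 499 to 549 CPM in NanogKO, summed over 55 regions within 10 kb. Those of primitive endoderm, which the sort should remove, had 318 to 336 CPM in NanogKO:Esrrb:Nanog, 286 to 323 CPM in NanogKO:Esrrb and 349 to 375 CPM in NanogKO over 36 regions. Fibroblast markers had 94.5 to 105 CPM in NanogKO:Esrrb:Nanog, 83.9 to 91.3 CPM in NanogKO:Esrrb and 87.3 to 96.8 CPM in NanogKO over 24 regions. No marker gene of these lists was without a counted region, and open chromatin at a gene does not show that it is expressed. The part of these differences in the results at Tbx3 was not tested.

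The locus as a whole was more open in NanogKO:Esrrb:Nanog and NanogKO:Esrrb than in NanogKO. The difference of NanogKO:Esrrb from NanogKO is a description only, since that comparison picked the locus. The sums include the region by which the locus was picked. Summed over the 66 regions, NanogKO:Esrrb:Nanog had 475.8, 442.4 and 421.2 CPM, NanogKO:Esrrb had 387.5, 416.4 and 325.8 CPM, and NanogKO had 243.4, 228.5 and 226.0 CPM. Every NanogKO:Esrrb:Nanog library lay above every NanogKO:Esrrb library, and every NanogKO:Esrrb library above every NanogKO library. The mean was 446 ± 27.5 CPM in NanogKO:Esrrb:Nanog, 377 ± 46.2 CPM in NanogKO:Esrrb and 233 ± 9.40 CPM in NanogKO (SD, n = 3 each). That is 1.19-fold between NanogKO:Esrrb:Nanog and NanogKO:Esrrb (two-sided exact permutation test, p = 0.1, the smallest that 3 against 3 libraries allow). The separation of NanogKO:Esrrb:Nanog and NanogKO:Esrrb depended on the scaling. The log2 difference of 0.25 was 0.15 with no TMM factor (exact permutation test, p = 0.3) and 0.14 with TMM factors from regions at gene ends (exact permutation test, p = 0.4), and libraries then overlapped. NanogKO:Esrrb:Nanog exceeded NanogKO 1.92-fold.

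**Figure D1:**
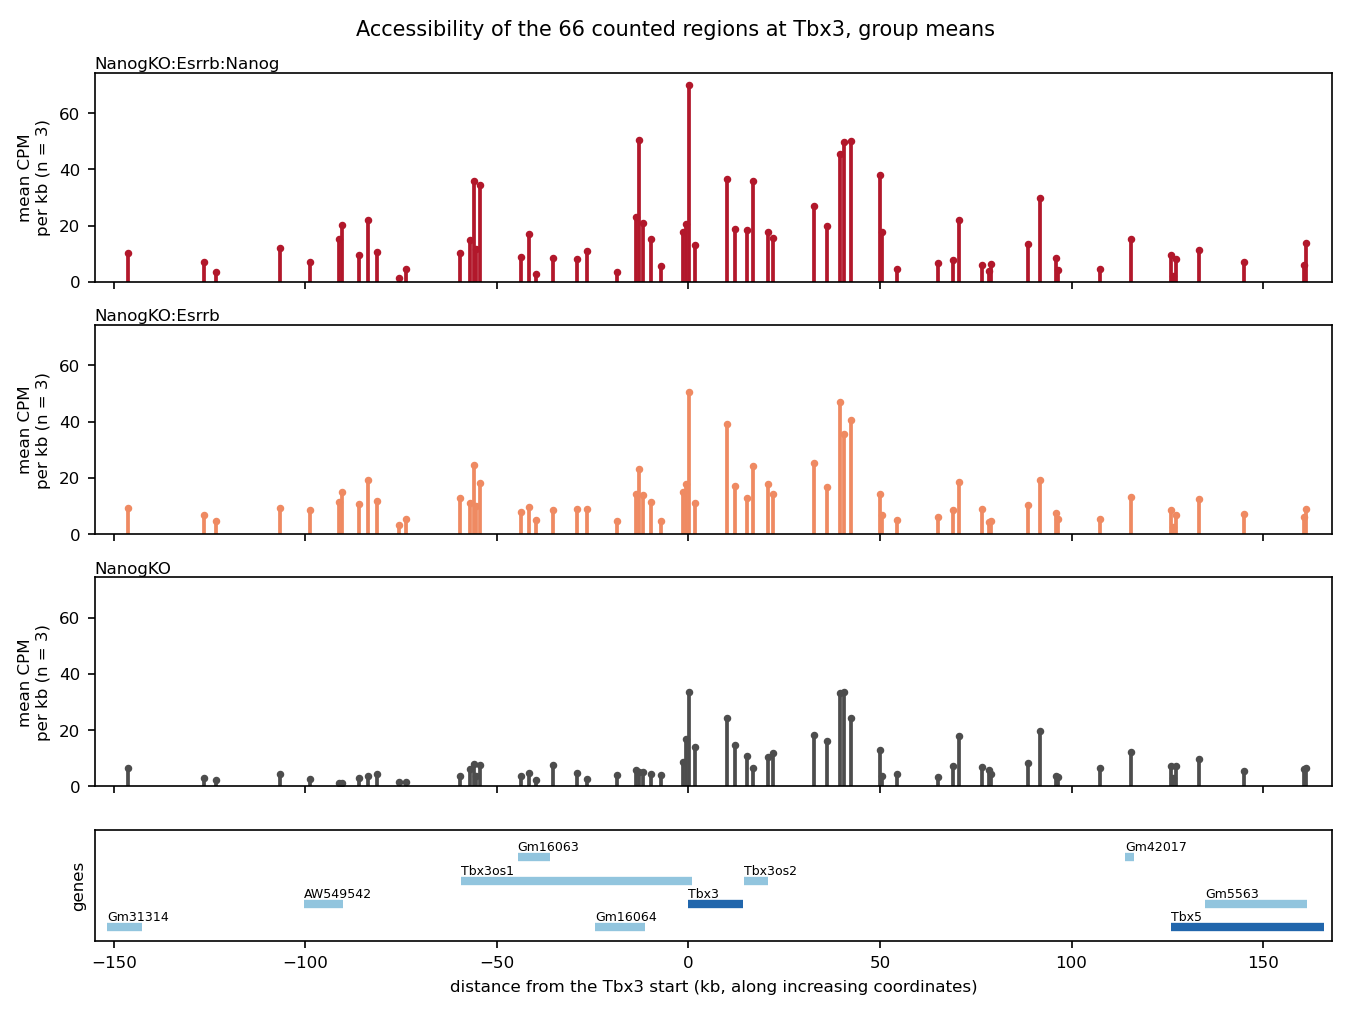
Mean CPM per kb of region (vertical axis, n = 3 libraries) for the 66 regions of the Tbx3 locus against distance from the lower end of Tbx3 in kb, with NanogKO:Esrrb:Nanog on top, NanogKO:Esrrb below it, NanogKO below that and gene spans at the bottom. Regions on the lower side are short in NanogKO and taller in both other groups, while several regions at and above the gene are open in all 3.

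Accessibility differed by side. The 30 regions on the lower side together had 147.3, 147.6 and 145.2 CPM in NanogKO:Esrrb:Nanog, 118.4, 139.3 and 97.3 CPM in NanogKO:Esrrb, against 45.4, 45.4 and 47.6 CPM in NanogKO. The NanogKO:Esrrb libraries spread most, with an SD of 21.0 CPM against 1.31 CPM in NanogKO:Esrrb:Nanog and 1.25 CPM in NanogKO. NanogKO:Esrrb:Nanog exceeded NanogKO 3.18-fold on this side, and NanogKO:Esrrb exceeded NanogKO 2.54-fold. This side holds the region by which the locus was picked, so both values are a description. The 31 regions on the higher side together had 191.8, 175.8 and 164.0 CPM in NanogKO:Esrrb:Nanog, 156.3, 169.2 and 133.6 CPM in NanogKO:Esrrb, against 119.0, 110.9 and 111.2 CPM in NanogKO. Here libraries of NanogKO:Esrrb:Nanog and NanogKO:Esrrb overlapped, and those of NanogKO lay below both. The log2 difference between NanogKO:Esrrb:Nanog and NanogKO was 0.64 on the higher side and 1.67 on the lower side.

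The sum over the 3 regions within the gene, away from its start, was 55.4, 45.2 and 54.1 CPM in NanogKO:Esrrb:Nanog, 55.4, 55.7 and 47.8 CPM in NanogKO:Esrrb, against 39.3, 36.0 and 33.6 CPM in NanogKO. Libraries of both groups with added Esrrb overlapped, with a log2 difference of -0.04 (two-sided exact permutation test, p = 0.5). For the 2 regions at the gene start the sum was 81.3, 73.7 and 57.8 CPM in NanogKO:Esrrb:Nanog and 57.4, 52.2 and 47.2 CPM in NanogKO:Esrrb. In NanogKO it was 39.8, 36.1 and 33.7 CPM, and no groups overlapped. Between the groups with added Esrrb the gap was narrow, 57.8 against 57.4 CPM.

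**Figure D2:**
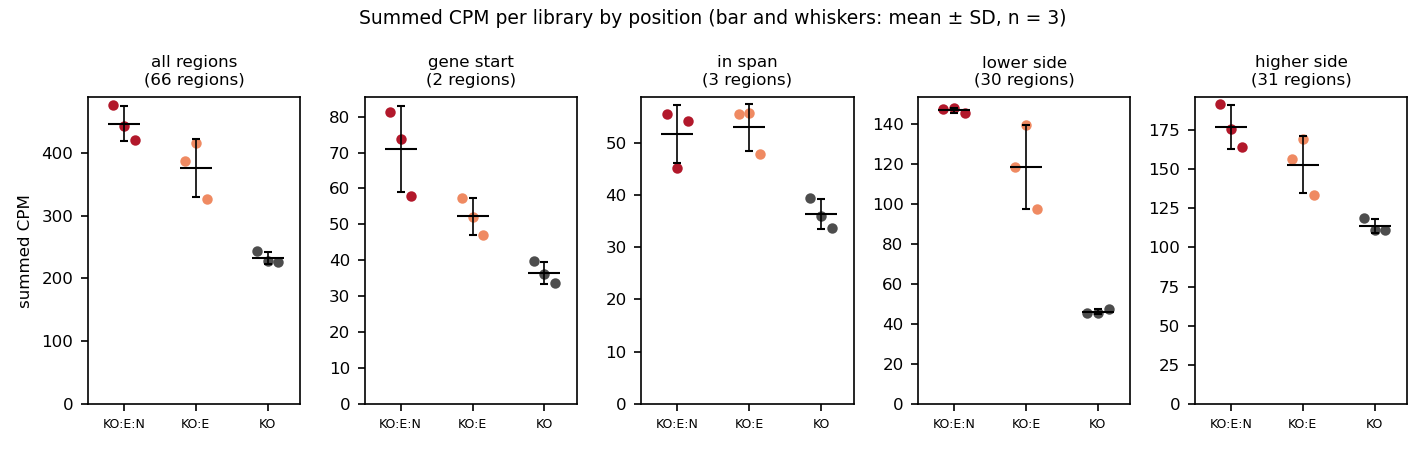
Summed CPM in each library (points) for all 66 regions and for those at the gene start, in its span, on its lower side and on its higher side, with NanogKO:Esrrb:Nanog (KO:E:N) left, NanogKO:Esrrb (KO:E) middle and NanogKO (KO) right, and the mean and SD of 3 libraries. NanogKO:Esrrb:Nanog libraries sit between 145.2 and 147.6 CPM on the lower side, where NanogKO libraries sit between 45.4 and 47.6 CPM.

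Levels of single regions are compared per kb of region, since regions were 63 to 1312 bp long. The median region had 12.6 CPM per kb in NanogKO:Esrrb:Nanog, 10.6 CPM per kb in NanogKO:Esrrb and 6.08 CPM per kb in NanogKO. The region over the Tbx3 start had the highest level of the locus in NanogKO:Esrrb:Nanog, 70.2 CPM per kb, and in NanogKO:Esrrb, 50.5 CPM per kb. With 33.4 CPM per kb it was level in NanogKO with regions 40.5 and 39.5 kb above the start, which had 33.5 and 33.2 CPM per kb. Regions overlapping AW549542, 90.4 and 91.2 kb below the start, were the least open of all 66 in NanogKO, at 1.17 and 1.14 CPM per kb. The same regions ranked 18 and 28 of 66 in NanogKO:Esrrb:Nanog and 19 and 30 in NanogKO:Esrrb. The locus was picked by the region 90.4 kb below the start, so these levels and ranks are a description.

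NanogKO:Esrrb:Nanog was set against NanogKO:Esrrb to ask how accessibility differed with added Nanog, in cells that both carried added Esrrb. This comparison did not itself enter the choice of the locus, but it shares the NanogKO:Esrrb libraries with the one that did. Of the 66 regions 14 rose and 2 fell, and 50 did not pass the test (edgeR's quasi-likelihood test, Benjamini-Hochberg adjusted over all regions tested). Over the genome 24.6% of regions were called, 12.6% higher and 12.0% lower. The locus had 21.2% higher and 3.03% lower, with a median log2 difference of 0.19 against -0.01 for all regions. In 17 regions every NanogKO:Esrrb:Nanog library lay above every NanogKO:Esrrb library and in 4 below, against 18.3% and 19.4% of all regions. Without NanogKO:Esrrb replicate 3 the count was 6 higher, and without NanogKO:Esrrb:Nanog replicate 3 it was 16 higher and 3 lower. With scaling factors from regions at gene ends it was 9 higher.

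A pair of neighbouring regions 50 kb above the start showed the largest rises. The region chr5:119720558-119720728 had 6.43, 7.54 and 5.45 CPM in NanogKO:Esrrb:Nanog, 2.35, 3.08 and 1.91 CPM in NanogKO:Esrrb, against 1.90, 2.13 and 2.66 CPM in NanogKO. It rose 2.63-fold over NanogKO:Esrrb (log2 1.39 ± 0.19 SE, adjusted p = 1.4e-05), while libraries of NanogKO:Esrrb and NanogKO overlapped. The region chr5:119720882-119721252, next to it, had 6.05, 6.60 and 7.003 CPM in NanogKO:Esrrb:Nanog, 2.23, 3.35 and 2.16 CPM in NanogKO:Esrrb, against 1.73, 1.49 and 1.05 CPM in NanogKO. It rose 2.54-fold (log2 1.34 ± 0.19, adjusted p = 2.4e-05), and here the 3 groups did not overlap. Both regions were called under all 15 alternative settings.

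Regions within Gm16064 and Tbx3os1, 13.01 kb below the start, rose next. The region chr5:119657437-119657610 had 8.42, 10.9 and 6.97 CPM in NanogKO:Esrrb:Nanog, 4.43, 4.84 and 2.78 CPM in NanogKO:Esrrb, against 0.902, 0.827 and 1.01 CPM in NanogKO. The 3 groups were apart in every library, and the rise over NanogKO:Esrrb was 2.17-fold (log2 1.12 ± 0.19, adjusted p = 0.00016). Its neighbours chr5:119656595-119657249 and chr5:119658560-119658872, named after their values were seen, rose by log2 0.69 ± 0.15 (adjusted p = 0.0013) and 0.57 ± 0.17 (adjusted p = 0.017). The call of chr5:119658560-119658872 was lost with scaling factors from regions at gene ends and without replicate 1 or 3 of NanogKO:Esrrb or replicate 2 of NanogKO:Esrrb:Nanog. In all 3 of these regions every NanogKO:Esrrb:Nanog library lay above every NanogKO:Esrrb library.

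Farther into Tbx3os1, chr5:119628845-119629076, which Gm16063 also overlaps, had 4.38, 3.93 and 3.41 CPM in NanogKO:Esrrb:Nanog, 2.03, 2.50 and 2.09 CPM in NanogKO:Esrrb, against 0.902, 1.12 and 1.36 CPM in NanogKO. No groups overlapped, and it rose 1.77-fold over NanogKO:Esrrb (log2 0.82 ± 0.20, adjusted p = 0.0036). The region chr5:119616039-119616128 had 3.17, 3.99 and 2.09 CPM in NanogKO:Esrrb:Nanog, 1.79, 2.04 and 1.10 CPM in NanogKO:Esrrb, against 0.683, 0.717 and 0.649 CPM in NanogKO. It rose 1.86-fold (log2 0.89 ± 0.25, adjusted p = 0.0097), though not without NanogKO:Esrrb replicate 3 or without NanogKO:Esrrb:Nanog replicate 2 (adjusted p = 0.077 for each). Among the authors' peak lists only that of NanogKO:Esrrb:Nanog held a peak there. The region thus entered the count through the list of the group where it was higher, and its rise is a description. Nearby, chr5:119614462-119614690 had a log2 difference of 0.54 ± 0.21 and an adjusted p of 0.057. It passed under 5 of 15 alternatives, among them the one with replicate numbers as a block (0.56 ± 0.21, adjusted p = 0.044). The region between these, chr5:119615056-119615235, did not pass (0.24 ± 0.24, adjusted p = 0.49).

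The start of Tbx3 itself was more open with added Nanog. The region chr5:119670202-119671101 had 72.8, 66.0 and 50.6 CPM in NanogKO:Esrrb:Nanog, 51.0, 45.2 and 40.3 CPM in NanogKO:Esrrb, against 32.9, 29.7 and 27.7 CPM in NanogKO. It rose 1.39-fold over NanogKO:Esrrb (log2 0.47 ± 0.13, adjusted p = 0.0084), with replicate 3 of NanogKO:Esrrb:Nanog just under replicate 1 of NanogKO:Esrrb. This call was lost without NanogKO:Esrrb replicate 3 (adjusted p = 0.065) and without NanogKO:Esrrb:Nanog replicate 1 (adjusted p = 0.053). The smaller region just before it, chr5:119669674-119670054, had 8.46, 7.69 and 7.19 CPM in NanogKO:Esrrb:Nanog, 6.40, 7.03 and 6.85 CPM in NanogKO:Esrrb, against 6.83, 6.48 and 5.96 CPM in NanogKO. It passed no test, with a log2 difference of 0.20 ± 0.14 (adjusted p = 0.29) against NanogKO:Esrrb and 0.28 ± 0.14 (adjusted p = 0.097) against NanogKO.

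**Figure D3:**
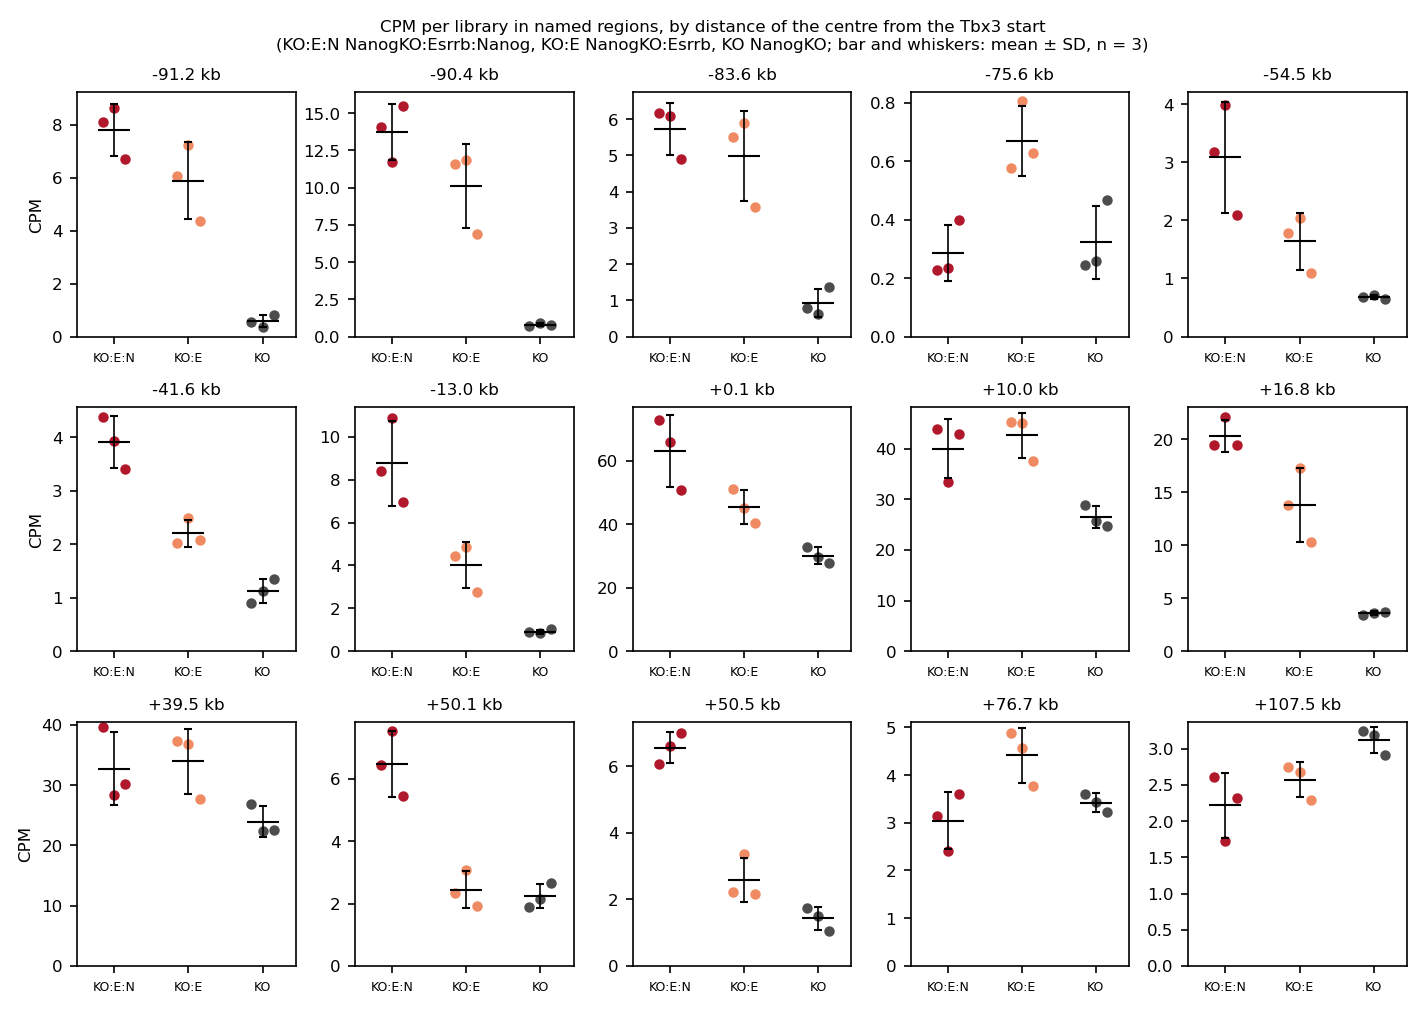
CPM in each library (points) with the group mean (bar) and SD (whiskers, n = 3) for regions of the locus, 1 panel each, with NanogKO:Esrrb:Nanog left, NanogKO:Esrrb middle and NanogKO right, titled by distance from the lower end of Tbx3. The region 50.1 kb above it is high in NanogKO:Esrrb:Nanog alone, with 5.45 to 7.54 CPM, while the region 90.4 kb below it is high in both groups with added Esrrb.

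Just beyond the other end of the gene, in Tbx3os2, chr5:119685677-119686012 had 7.07, 5.72 and 5.84 CPM in NanogKO:Esrrb:Nanog, 4.21, 4.34 and 4.28 CPM in NanogKO:Esrrb, against 4.07, 2.72 and 3.95 CPM in NanogKO. It rose 1.45-fold over NanogKO:Esrrb (log2 0.54 ± 0.17, adjusted p = 0.019), with no overlap. That call was lost with scaling factors from regions at gene ends (adjusted p = 0.081) and without replicate 1 or 3 of NanogKO:Esrrb or replicate 1 of NanogKO:Esrrb:Nanog (adjusted p = 0.055 to 0.1). The region chr5:119687038-119687603 had 19.5, 22.1 and 19.5 CPM in NanogKO:Esrrb:Nanog, 13.8, 17.3 and 10.3 CPM in NanogKO:Esrrb, against 3.41, 3.66 and 3.75 CPM in NanogKO. It rose 1.47-fold over NanogKO:Esrrb (log2 0.56 ± 0.14, adjusted p = 0.0059), but not without NanogKO:Esrrb replicate 3 (adjusted p = 0.061). The remaining rises were at chr5:119563523-119564522, chr5:119579799-119580480, chr5:119710879-119711145 and chr5:119762203-119762375, by log2 0.37 to 0.62. Of these, chr5:119563523-119564522 lost its call under 8 of 15 alternatives and chr5:119710879-119711145 under 5, while chr5:119762203-119762375 kept it under all 15.

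Both falls against NanogKO:Esrrb depended on single libraries. The region chr5:119594862-119595071 had 0.228, 0.235 and 0.398 CPM in NanogKO:Esrrb:Nanog, 0.576, 0.804 and 0.626 CPM in NanogKO:Esrrb, against 0.244, 0.257 and 0.466 CPM in NanogKO. With 8 to 48 counts in a library it fell by 1.18 on the log2 scale (SE 0.35, adjusted p = 0.016), so that it stood high in NanogKO:Esrrb alone. Among the authors' peak lists only that of NanogKO:Esrrb held a peak there. The region thus entered the count through the list of the group where it stood high, and its fall is a description. The call was lost without replicate 1 or 2 of NanogKO:Esrrb:Nanog or replicate 2 of NanogKO:Esrrb (adjusted p = 0.053 to 0.069). The region chr5:119746969-119747467, which fell by 0.52 (SE 0.18, adjusted p = 0.033), had 3.13, 2.41 and 3.60 CPM in NanogKO:Esrrb:Nanog, 4.89, 4.57 and 3.78 CPM in NanogKO:Esrrb, against 3.61, 3.44 and 3.22 CPM in NanogKO. That fall was lost without replicate 1 or 2 of either group (adjusted p = 0.071 to 0.15).

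NanogKO:Esrrb:Nanog was also set against NanogKO, a comparison that shares the NanogKO libraries with the one that picked the locus. Of the 66 regions 42 rose, 1 fell and 23 did not pass. Over the genome 49.3% of regions were called, 24.9% higher and 24.4% lower, against 63.6% and 1.52% at the locus, with a median log2 difference of 0.72. In 48 regions every NanogKO:Esrrb:Nanog library lay above every NanogKO library and in 3 below, against 26.7% and 27.8% of all regions. Over chromosome 5 as a whole, 10971 regions had a median log2 difference of 0.04.

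Rises were most frequent on the lower side, in 25 of 30 regions with a median log2 difference of 1.52. On the higher side 14 of 31 rose and 1 fell, with a median of 0.38. Below the gene 9 of 13 regions rose within 50 kb, 12 of 13 between 50 and 100 kb, and 4 of 4 beyond it. Above the gene 9 of 12 regions rose within 50 kb, 4 of 11 rose and 1 fell between 50 and 100 kb, and 1 of 8 rose beyond it. By gene, 14 of 19 regions overlapping Tbx3os1 rose, 3 of 3 overlapping AW549542 and 3 of 3 overlapping Tbx3os2, against 1 of 7 overlapping Tbx5. Counts for the lower side, for 50 to 100 kb below the gene and for AW549542 include the region that picked the locus. Beyond the window, out to 1 Mb, 42.6% of 61 regions were higher below Tbx3 and 29.5% of 139 regions above it, with medians of 0.29 and 0.24.

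**Figure D4:**
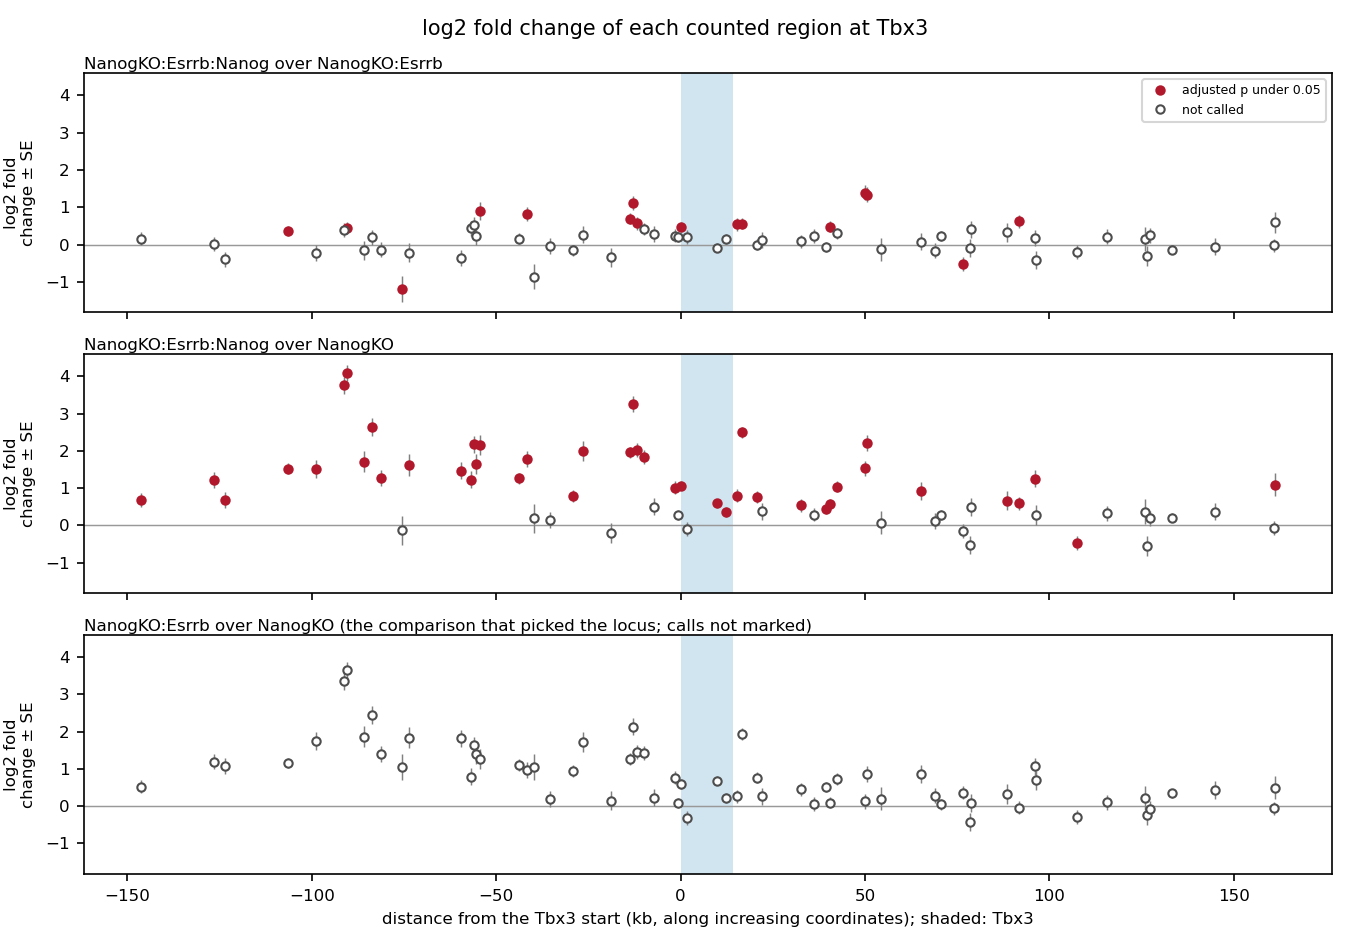
Log2 difference with its SE (vertical axis) for each of the 66 regions against distance from the lower end of Tbx3 in kb, for NanogKO:Esrrb:Nanog against NanogKO:Esrrb (top), NanogKO:Esrrb:Nanog against NanogKO (middle) and NanogKO:Esrrb against NanogKO (bottom). Filled points passed the test in the upper panels, and calls are not marked in the bottom panel. Against NanogKO the differences reach 4.09 on the lower side.

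The largest differences from NanogKO lay at AW549542. The region chr5:119579799-119580480, the one that drew attention to the locus, had 14.0, 11.7 and 15.5 CPM in NanogKO:Esrrb:Nanog, 11.6, 11.9 and 6.85 CPM in NanogKO:Esrrb, against 0.683, 0.918 and 0.791 CPM in NanogKO. It was 17.1-fold higher in NanogKO:Esrrb:Nanog than in NanogKO (log2 4.09 ± 0.21) and 12.5-fold higher in NanogKO:Esrrb than in NanogKO (3.65 ± 0.21). Between NanogKO:Esrrb:Nanog and NanogKO:Esrrb, whose libraries overlapped, the log2 difference was 0.45 ± 0.16 with an adjusted p of 0.048. That call was lost under 9 of 15 alternatives (adjusted p = 0.051 to 0.31). The same NanogKO:Esrrb libraries entered the choice of this region. The neighbouring region chr5:119579070-119579578 had 8.09, 8.63 and 6.69 CPM in NanogKO:Esrrb:Nanog, 6.06, 7.25 and 4.37 CPM in NanogKO:Esrrb, against 0.536, 0.367 and 0.831 CPM in NanogKO. It was 13.5-fold higher in NanogKO:Esrrb:Nanog than in NanogKO and 10.2-fold higher in NanogKO:Esrrb, and its log2 difference between the groups with added Esrrb was 0.40 ± 0.19 (adjusted p = 0.12).

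Some kb nearer the gene, chr5:119586813-119587071 had 6.18, 6.10 and 4.89 CPM in NanogKO:Esrrb:Nanog, 5.50, 5.89 and 3.57 CPM in NanogKO:Esrrb, against 0.780, 0.625 and 1.36 CPM in NanogKO. It rose 6.19-fold over NanogKO (log2 2.63 ± 0.24, adjusted p = 9.3e-10), and groups with added Esrrb overlapped (0.20 ± 0.20, adjusted p = 0.51). The region of Gm16064 at 13.01 kb below the start, given above, rose 9.52-fold over NanogKO (log2 3.25 ± 0.22, adjusted p = 5.2e-12). On the higher side the region chr5:119687038-119687603 in Tbx3os2 showed the largest rise, 5.63-fold (log2 2.49 ± 0.16, adjusted p = 1.3e-12).

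The pair of regions 50 kb above the start also rose over NanogKO, by log2 1.53 ± 0.20 for chr5:119720558-119720728 (adjusted p = 3.1e-07) and 2.21 ± 0.21 for chr5:119720882-119721252 (adjusted p = 1.5e-09). The Tbx3 start region rose 2.10-fold (log2 1.07 ± 0.13, adjusted p = 1.2e-07). Within the gene, chr5:119679965-119681054 had 43.9, 33.4 and 42.9 CPM in NanogKO:Esrrb:Nanog, 45.3, 45.1 and 37.5 CPM in NanogKO:Esrrb, against 29.0, 25.7 and 24.8 CPM in NanogKO. It rose 1.51-fold over NanogKO (log2 0.60 ± 0.12, adjusted p = 0.00021), whereas groups with added Esrrb overlapped (log2 -0.09 ± 0.12, adjusted p = 0.62). The region that covers most of the Tbx3os2 promoter, chr5:119691007-119691412, named for that sequence, had 8.48, 6.07 and 6.95 CPM in NanogKO:Esrrb:Nanog, 7.55, 7.65 and 6.38 CPM in NanogKO:Esrrb, against 4.29, 4.35 and 4.07 CPM in NanogKO. It rose 1.69-fold over NanogKO (log2 0.76 ± 0.15, adjusted p = 0.00017), and the groups with added Esrrb overlapped.

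Other regions on the higher side differed less. The region chr5:119709703-119710424, among the most open of the locus, had 39.6, 28.3 and 30.2 CPM in NanogKO:Esrrb:Nanog, 37.3, 36.8 and 27.8 CPM in NanogKO:Esrrb, against 26.9, 22.4 and 22.6 CPM in NanogKO. It rose by log2 0.45 ± 0.13 over NanogKO (adjusted p = 0.0067), though not without NanogKO:Esrrb:Nanog replicate 1 (adjusted p = 0.072). The only fall was at chr5:119777819-119778289, with 2.61, 1.73 and 2.32 CPM in NanogKO:Esrrb:Nanog, 2.74, 2.68 and 2.30 CPM in NanogKO:Esrrb, against 3.24, 3.20 and 2.92 CPM in NanogKO. It fell by 0.48 on the log2 scale (SE 0.19, adjusted p = 0.042) and was lost under 7 of 15 alternatives (adjusted p = 0.051 to 0.17).

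At the lower edge of the window, chr5:119523920-119524431 had 4.27, 4.69 and 6.99 CPM in NanogKO:Esrrb:Nanog, 4.77, 5.28 and 4.30 CPM in NanogKO:Esrrb, against 3.27, 3.69 and 3.02 CPM in NanogKO. The next region outward, chr5:119482843-119483197, had 1.87, 1.67 and 2.23 CPM in NanogKO:Esrrb:Nanog, 1.77, 1.83 and 1.32 CPM in NanogKO:Esrrb, against 0.732, 0.735 and 0.730 CPM in NanogKO. Both groups with added Esrrb lay above every NanogKO library on either side of this edge. At the higher edge, chr5:119831748-119831861 had 1.64, 2.00 and 1.05 CPM in NanogKO:Esrrb:Nanog, 0.934, 1.41 and 0.696 CPM in NanogKO:Esrrb, against 0.878, 0.588 and 0.710 CPM in NanogKO. The next region outward, chr5:119835068-119835829, had 10.4, 9.18 and 9.77 CPM in NanogKO:Esrrb:Nanog, 9.20, 10.8 and 9.34 CPM in NanogKO:Esrrb, against 11.3, 9.92 and 10.6 CPM in NanogKO, and its groups overlapped.

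NanogKO:Esrrb against NanogKO is described only, since this comparison picked the locus. Of the 66 regions 39 were called higher and 0 lower, where 37.0% of all regions were called, 20.0% higher and 17.0% lower. The choice of the locus used this comparison, so nothing is read from that count or from the next. In 43 regions every NanogKO:Esrrb library lay above every NanogKO library and in 4 below, against 26.2% and 25.7% of all regions. The log2 difference was 0.60 ± 0.13 at the Tbx3 start, 2.13 ± 0.22 at chr5:119657437-119657610 and 1.93 ± 0.16 at chr5:119687038-119687603. For the pair 50 kb above the start it was 0.13 ± 0.20 at chr5:119720558-119720728 and 0.86 ± 0.21 at chr5:119720882-119721252.

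The authors' peak lists, 1 per group, mark in which groups a region held a peak. Counted regions came from these lists, so they are not a separate measurement. Of the 66 regions 36 held a peak in all 3 lists, 15 held one in the NanogKO:Esrrb:Nanog and NanogKO:Esrrb lists but not in that of NanogKO, and 3, 5 and 2 held one only in the list of NanogKO:Esrrb:Nanog, of NanogKO:Esrrb and of NanogKO. Another 4 held one in the lists of NanogKO:Esrrb and NanogKO and 1 in those of NanogKO:Esrrb:Nanog and NanogKO. Peaks at all 3 regions overlapping AW549542, among them the region by which the locus was picked, were absent from the NanogKO list. Peak names in the NanogKO:Esrrb:Nanog list bear the library number of a NanogKO:Esrrb sample, so which libraries that list came from is uncertain.

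Tbx3 was set beside 18 genes of the naive network by the regions in or within 150 kb of each. Among 850 such regions NanogKO:Esrrb:Nanog was higher than NanogKO in 37.1% and lower in 17.8%, with a median log2 difference of 0.17, and higher than NanogKO:Esrrb in 17.4% and lower in 8.59%, with a median of 0.03. By median against NanogKO, Tbx3 with 0.72 stood beside the highest of these genes, Zfp42 with 0.75, Klf5 with 0.67, Klf4 with 0.65 and Esrrb with 0.55. The lowest medians were those of Prdm14 with -0.09, Nr5a2 with -0.02 and Sox2 with -0.01, so the list did not share 1 direction. Against NanogKO:Esrrb the highest medians were those of Esrrb with 0.33, Klf4 with 0.28 and Nr0b1 with 0.25, and Tbx3 had 0.19. The median of Nr0b1 rests on 4 regions, with 0 called higher and 0 lower in that comparison. Zfp42 encodes a zinc finger protein used as a marker of undifferentiated cells, Klf4 and Klf5 encode Krüppel-like factors of self-renewal, and Nr0b1 encodes a nuclear receptor that binds other pluripotency factors.

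Other T-box genes differed among themselves. Of 533 regions at 16 T-box genes, those of the Tbx3 window left out, NanogKO:Esrrb:Nanog was higher than NanogKO in 19.1% and lower in 23.1%, with a median log2 difference of -0.03, and higher than NanogKO:Esrrb in 13.9% and lower in 8.82%. Tbx2, the nearest paralogue of Tbx3, had 6 regions higher and 14 lower of 43, and Tbx4, the neighbour of Tbx2, 6 higher and 17 lower of 44. Windows of Tbx2 and Tbx4 overlap, so these are not separate cases. Tbx21, a factor of T helper cells, had 23 higher and 5 lower of 62, and Tbx10 had 12 higher and 6 lower of 54. At 10 primitive endoderm genes, of 249 regions, 41 were higher in NanogKO:Esrrb:Nanog than in NanogKO and 63 lower, with a median of -0.08.

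**Figure D5:**
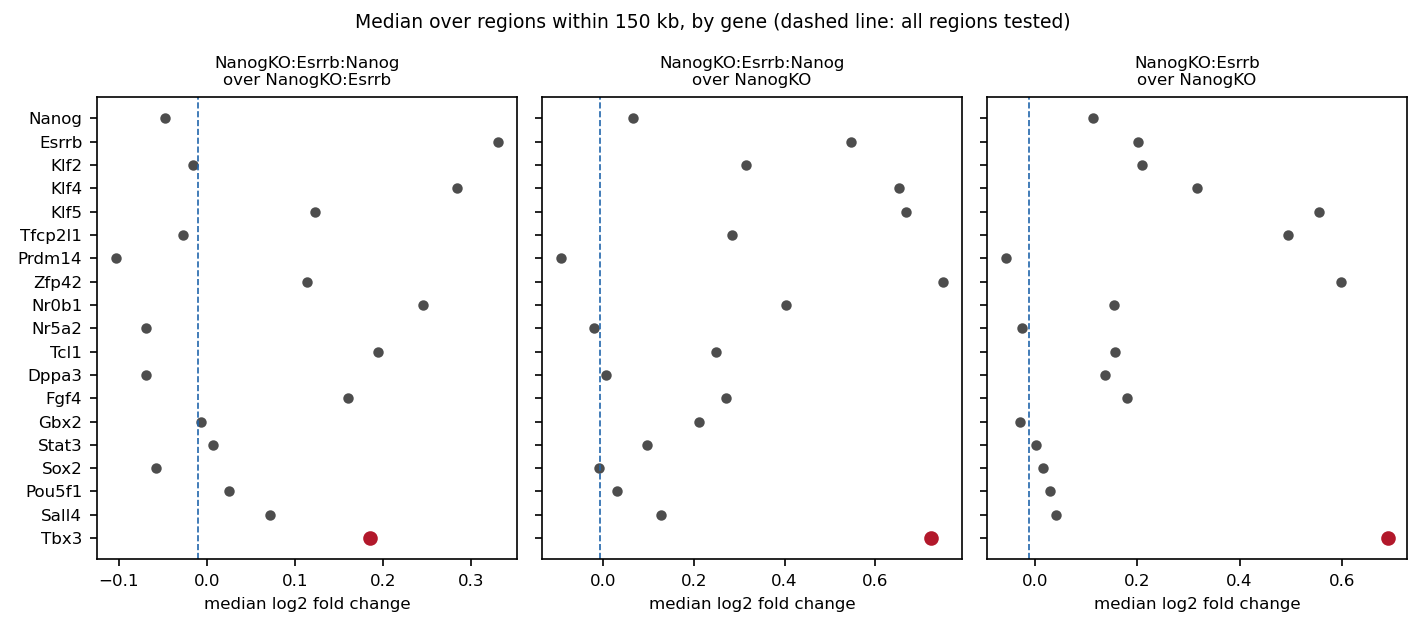
Median log2 difference over the regions in or within 150 kb of Tbx3 and of 18 genes of the naive network (1 gene per line), for NanogKO:Esrrb:Nanog against NanogKO:Esrrb (left), NanogKO:Esrrb:Nanog against NanogKO (middle) and NanogKO:Esrrb against NanogKO (right), with no error bars because regions of a gene are not replicates. Tbx3 (red) is at 0.19, 0.72 and 0.69, and the dashed line is the median of all regions tested.

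The genes whose summed accessibility followed that of Tbx3 most closely were found among 18565 protein-coding genes by the root mean square difference of centred log2 CPM over the 9 libraries. Centred values of Tbx3 averaged 0.40 in NanogKO:Esrrb:Nanog, 0.15 in NanogKO:Esrrb and -0.54 in NanogKO. Among the 5 closest were Akap1 at 0.047, Scpep1 at 0.061, Hspb8 at 0.067 and Coil at 0.069. Windows of Akap1, Scpep1 and Coil overlap on chromosome 11, so these are not separate cases.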

How the data were processed

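The deposited table held raw read counts, whole numbers with no normalization, for 157497 regions in 9 libraries, and the authors' peak lists, 1 per group, gave each peak a score of their own, used here only to mark which regions held a peak (overlap of at least 1 bp). Coordinates are mm10, counted from 1. Per the submitters' processing notes the tools included Bowtie2, MACS2 2.2.0, bedtools 2.26.0 and SAMtools 1.4.1, as well as cutadapt, deepTools 4.4.0 and bcl2fastq 2.19.1. The counting tool, duplicate removal and any shift of reads for the transposase are not given in the sources used here. Counted regions came from these peak lists, so chromatin outside them was not measured.

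All 9 libraries entered 1 fit in edgeR 4.0.16 (R 4.3.3) with TMM factors, the filterByExpr filter (157439 regions kept) and the quasi-likelihood F test, with 6 residual degrees of freedom. Calls were made at 0.05 on Benjamini-Hochberg adjusted p-values over all regions tested. SE is the standard error of log2 fold change derived from the F value. Summed CPM was compared with exact permutation tests. Fits were tested on simulated counts. Alternatives were DESeq2 1.42.0, other scalings, no filter, fits of 2 groups, a replicate block, each library left out, and windows of 50 and 100 kb.

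The locus, the gene lists and the tests were chosen with earlier results of these data known. Regions with values in every library were those within 1 kb of either end of Tbx3, the 5 largest called rises and falls of each comparison, the 3 of highest mean CPM, and those at the window's edges. Others named were chosen after their values were seen.

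Replicate numbers were checked by the correlation of each library's deviations from its group mean. For NanogKO:Esrrb:Nanog with NanogKO:Esrrb, same-numbered libraries gave 0.112 to 0.233, and for NanogKO:Esrrb with NanogKO 0.171 to 0.187. For NanogKO:Esrrb:Nanog with NanogKO they gave 0.004 to 0.199. The main fit and the permutation tests did not pair libraries by number, and only the replicate block did so. No label ties a number to a culture or day. The series text counts 12 samples, and those beyond these 9 were not analysed here. One of the genes closest to Tbx3 in pattern is not reported here.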

Additional observations from a re-analysis of the deposited data

How the results depend on the processing

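No region of the locus changed direction while called under any of 15 alternative fits. Of regions called in NanogKO:Esrrb:Nanog, 6 of 16 kept the call against NanogKO:Esrrb under all 15, and 37 of 43 kept it against NanogKO. With scaling factors from regions at gene ends, which moved the median log2 difference of all regions between NanogKO:Esrrb:Nanog and NanogKO:Esrrb by -0.11, the count higher in NanogKO:Esrrb:Nanog than in NanogKO:Esrrb was 9 in place of 14. Leaving out 1 library gave 6 higher (without NanogKO:Esrrb replicate 3) to 18 higher (without NanogKO:Esrrb replicate 2), and 0 to 3 lower. Against NanogKO it gave 40 to 43 higher and 0 to 2 lower in NanogKO:Esrrb:Nanog, and 32 to 39 higher in NanogKO:Esrrb. Counts of NanogKO:Esrrb against NanogKO, here and within 50 kb below, are a description only, since that comparison picked the locus. The single fall against NanogKO was also absent, 0 lower, when only both groups compared entered the fit. The replicate block gave 15 higher and 2 lower in NanogKO:Esrrb:Nanog than in NanogKO:Esrrb, and changed no call beyond the 1 given beside its region. Within 50 kb, which holds 30 regions, NanogKO:Esrrb:Nanog was higher than NanogKO in 21 and lower in 0, with 0 lower than in NanogKO:Esrrb, and 18 higher in NanogKO:Esrrb than in NanogKO. With no TMM factor the log2 difference in summed CPM between NanogKO:Esrrb:Nanog and NanogKO was 0.84 in place of 0.94, and between NanogKO:Esrrb:Nanog and NanogKO:Esrrb it was 0.15 in place of 0.25 (exact permutation p = 0.3 in place of 0.1). With factors from gene ends the difference from NanogKO:Esrrb was 0.14 (exact permutation p = 0.4). The cause of these changes was not tested, other than the smaller number of regions in the narrower window. Regions of few counts, down to 8 in a library, carry the widest errors, and 3 libraries a group allow no exact p under 0.1.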
